A study of Mus musculus with 3 samples.

Results

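The cytosolic ribosomal protein genes encode the proteins that assemble with ribosomal RNA into the large (60S) and the small (40S) subunit of the ribosome. Members were chosen by gene symbol alone: the Rpl and Rps symbols with a number, with or without the suffix a, x or l, and the acidic stalk genes Rplp0, Rplp1 and Rplp2. The rule found 48 of the 10191 genes measured, 32 of the large and 16 of the small subunit. They were represented by 77 of 12417 probe sets. A RefSeq table of the mouse assembly GRCm38.p6 held 82 protein-coding symbols that fit the rule, and 47 of them were members. The other member, Rpl6l, is classed there as a pseudogene. A further 17 of these symbols appeared only on probe sets that carry several symbols, and 18 had no value in the table analysed here.

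Expression was measured in 3 populations of CD8+ T cells: CXCR3+ innate, CXCR3- innate and naive cells. All came from spleen and lymph nodes of untreated C57BL/6 CXCR3-GFP Reporter mice kept free of pathogens, in which GFP reports the chemokine receptor CXCR3. Cells were stained for CD44, CD62L and CD8 before sorting. RNA came from about 3 to 5 mice, which the labels also call CIBER mice. With 1 array per population there was no spread between replicates to set a difference against, and none was tested. Values were log2 RMA values, where RMA is a background correction, normalization and summary of the probes of each probe set, and a difference of 1 is 2-fold. A gene was counted as higher or lower by size when its values differed by at least 1.5-fold (0.585 on the log2 scale) and the larger of the 2 values reached the median gene of its array. A second count used 2-fold. In RNA from many cells, fewer cells of a type and less RNA per cell cannot be told apart.

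Ribosomal protein genes are among the most actively transcribed genes of a cell, and their products are needed in nearly equal numbers in each ribosome. Their messenger RNAs carry a 5′ terminal oligopyrimidine (TOP) tract, a C followed by a run of pyrimidines at the very start of the transcript, through which mTORC1 and the RNA-binding protein LARP1 control how strongly they are translated. Naive T cells are small and hold few ribosomes, and build many more after activation. Many ribosomal protein genes have near-identical processed copies elsewhere in the genome, which can share probes with them, so single values may mix a gene with its copies.

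The start regions of these genes were read from RefSeq promoter sequences of GRCm38.p6, to show where a TOP-like run of pyrimidines lies near the annotated start and where none was found. Of the 48 members, 38 had at least 1 promoter in that table, 45 promoters in all. Each stretch below runs 5′ to 3′ on the strand of its gene, from 60 bases before the annotated start of transcription to 15 bases from the start on. The first 5 genes were lower by size in CXCR3- innate than in naive cells, and Rps6 and Rps18 were not. Rps7 was lower by size and had no such run. Capitals mark a run of a C followed by at least 6 bases that are each C or T, beginning no more than 15 bases from the annotated start.
Rpl14, chr9:120571457-120571531, plus strand: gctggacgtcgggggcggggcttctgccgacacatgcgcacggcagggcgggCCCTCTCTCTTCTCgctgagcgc
Rpl35, chr2:39005117-39005191, minus strand: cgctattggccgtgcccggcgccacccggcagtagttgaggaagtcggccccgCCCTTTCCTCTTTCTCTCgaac
Rps26, chr10:128626492-128626566, minus strand: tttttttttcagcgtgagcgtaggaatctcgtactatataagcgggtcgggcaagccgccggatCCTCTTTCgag
Rpl38, chr11:114668520-114668594, plus strand: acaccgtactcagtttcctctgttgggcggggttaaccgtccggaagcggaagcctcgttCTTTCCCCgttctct
Rpl15, chr14:18270972-18271046, minus strand: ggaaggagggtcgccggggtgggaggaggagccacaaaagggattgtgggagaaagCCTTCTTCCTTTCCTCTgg
Rps6, chr4:86857353-86857427, minus strand: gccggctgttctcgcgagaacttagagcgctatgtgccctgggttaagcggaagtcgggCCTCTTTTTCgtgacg
Rps18, chr17:33955651-33955725, minus strand: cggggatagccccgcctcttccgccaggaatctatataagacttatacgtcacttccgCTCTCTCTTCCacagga
Rps7, chr12:28635939-28636013, minus strand: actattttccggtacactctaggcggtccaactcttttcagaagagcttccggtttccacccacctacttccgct

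The pyrimidine run was present in 24 of 45 member promoters (53.3%) and in 12 of 75 promoters of mitochondrial ribosomal protein genes. It was present in 17.0% of all 32851 promoters of the same length and in 17.4% of protein-coding promoters. The run was searched on the strand of the gene only. A second motif, CCGGAAG, the core bound by ETS factors such as GABP, was searched on both strands of the 300 bases. It was found in 35.6% of member promoters and in 34.7% of mitochondrial ribosomal protein promoters. The share was 8.86% among all promoters and 11.6% among protein-coding promoters. The reverse complement of this motif can overlap a pyrimidine run. The 23 members with a run had a median difference between CXCR3- innate and naive cells of -0.39, and the 15 without one had -0.38. A match in these letters is a description and not a measured start or binding site.

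On all 3 arrays most members gave signals above the median gene. The median over the 48 members was 9.22 on the CXCR3+ innate array, 8.72 on the CXCR3- innate array and 9.33 on the naive array, where the medians of all genes were 7.63, 7.63 and 7.65. The CXCR3- innate array gave the strictly lowest of the 3 values for 39 of the 48 members, against 20.7% of all genes. The CXCR3+ innate array was strictly lowest for 3 members (background 12.6%) and the naive array for 2 (background 13.6%). For 29 members the order was naive, then CXCR3+ innate, then CXCR3- innate from high to low, an order found in 12.5% of all genes.

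**Figure D1:**
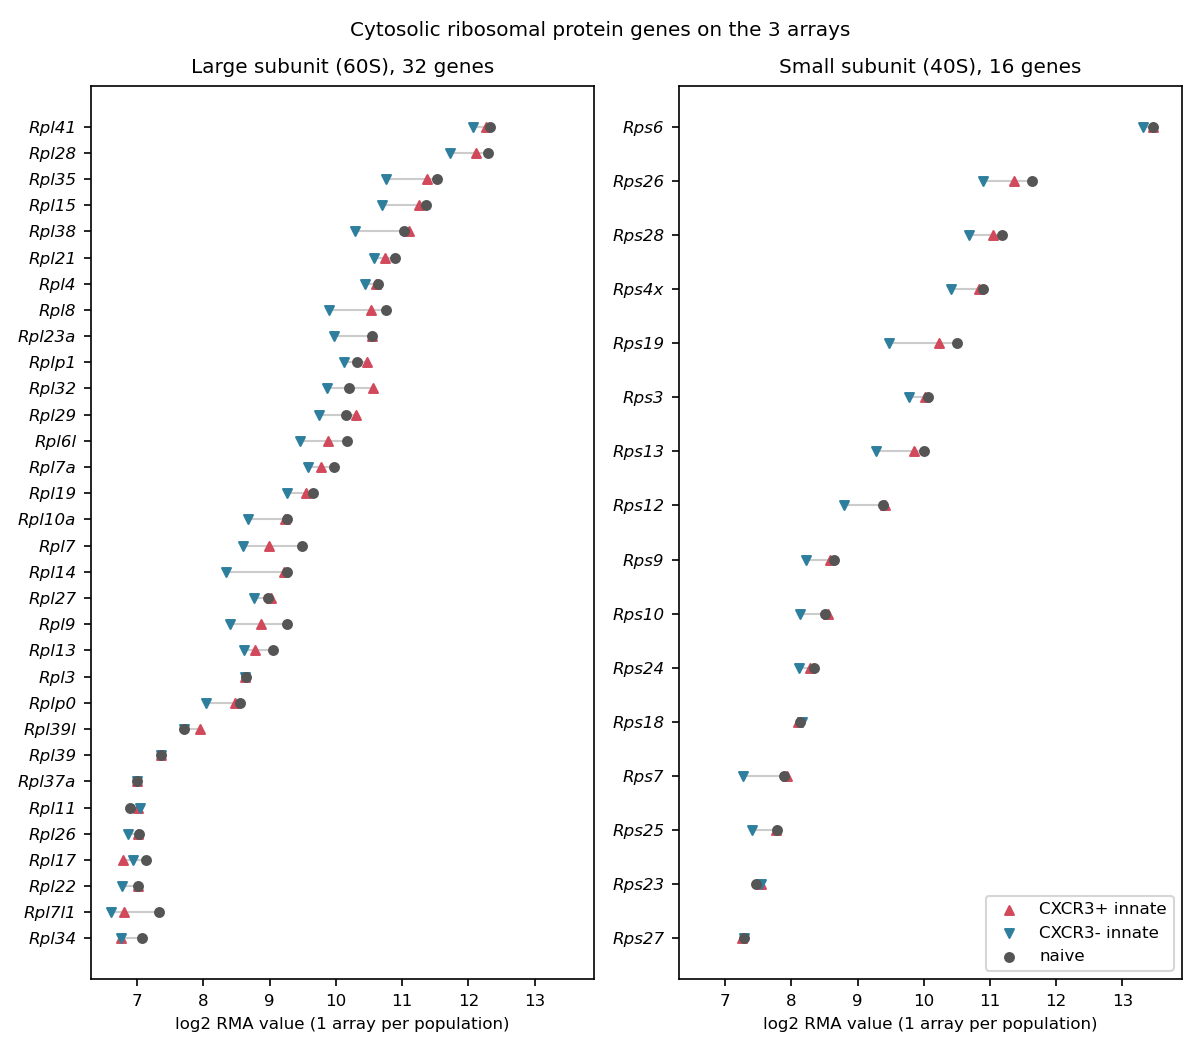
Log2 RMA values of the 32 large subunit and 16 small subunit genes, each row 1 gene and each symbol 1 array, ordered by the mean of the 3 arrays. The CXCR3- innate symbol lies to the left of the other symbols in 39 of 48 rows, and the CXCR3+ innate and naive symbols often lie close together.

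In CXCR3- innate cells, ribosomal protein genes of both subunits were lower than in naive cells. Of 48 members, 42 had a lower value, 3 an equal and 3 a higher value, against 36.3% of all genes below 0, 42.1% equal and 21.6% above. The median difference was -0.39 over the members and 0.00 over all genes. By size, 13 members were at least 1.5-fold lower, with a background of 1.6%, and none was 1.5-fold higher (background 0.0981%) or 2-fold higher (background 0.0196%). Rps19 alone was past 2-fold, a count with a background of 0.226%. These backgrounds are not matched for level: genes under the median of the naive array could not be counted as lower, and 38 of 48 members reached it. The subunits did not stand apart: 29 of 32 large and 13 of 16 small subunit genes were below 0, with medians of -0.39 and -0.40, and 8 and 5 of them were lower by size.

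**Figure D2:**
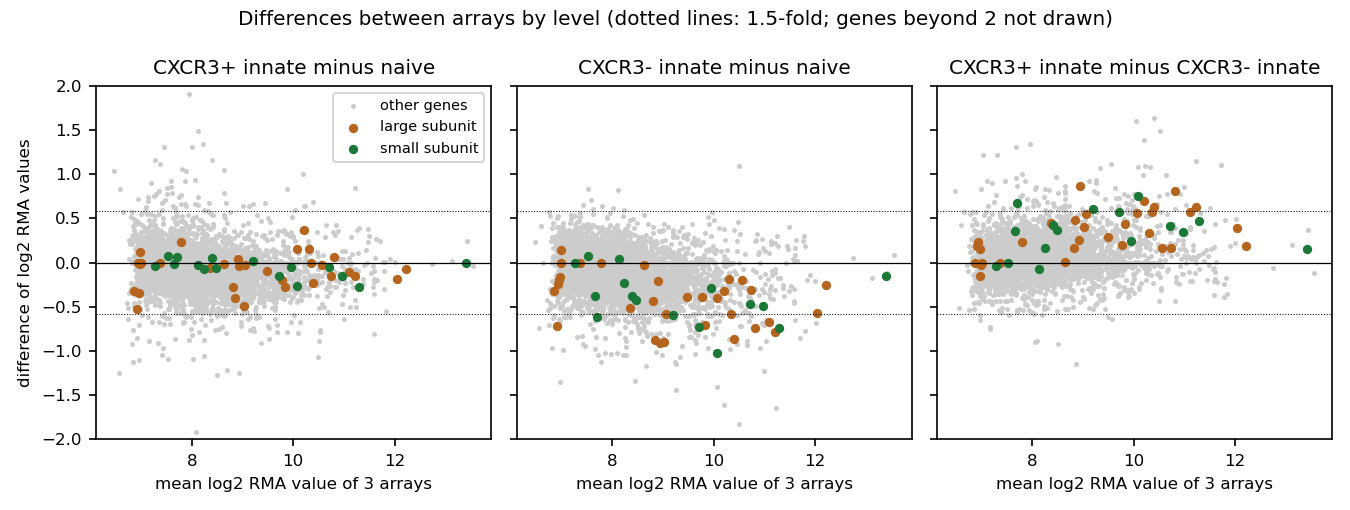
Difference of log2 RMA values (vertical axis) against the mean of the 3 arrays (horizontal axis) for each comparison, with large subunit genes in brown, small subunit genes in green, other genes in grey and dotted lines at 1.5-fold. Genes beyond a difference of 2, which were 3, 1 and 0 from left to right, are not drawn, and no ribosomal protein gene is among them. In the middle panel 42 of 48 members lie below 0.

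Among the small subunit proteins, Rps19, a protein of the 40S head (Entrez gene 20085), is the gene most often mutated in Diamond-Blackfan anaemia, an inherited failure of red cell production. It read 10.24 on the CXCR3+ innate array, 9.48 on the CXCR3- innate array and 10.51 on the naive array. The CXCR3- innate value was 2.03-fold below naive, whereas CXCR3+ innate cells differed from naive by -0.27. Its 2 probe sets had identical values and count as 1 measurement, and after quantile normalization the difference was -0.86. Rps26, which lies where messenger RNA leaves the ribosome, read 11.36, 10.89 and 11.63 in the same order of arrays. Rps13, of the 40S body, read 9.85, 9.28 and 10.01. In both genes the CXCR3- innate array was the lowest, by 0.75 and 0.73 from naive.

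Rps7, another gene mutated in Diamond-Blackfan anaemia, read 7.94 on the CXCR3+ innate array, 7.27 on the CXCR3- innate array and 7.88 on the naive array. Rps12, of the beak of the 40S head, read 9.41, 8.80 and 9.39. Both had nearly the same value in CXCR3+ innate and naive cells, and differed from naive by -0.61 and -0.59 in CXCR3- innate cells. The 8 probe sets of Rps12 lay between -0.58 and -0.62, but 6 of them held identical values.

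The other small subunit genes were below naive by less than 1.5-fold in CXCR3- innate cells or did not differ. Rps28 read 11.04, 10.69 and 11.19 and was at -0.50, the X-linked Rps4x at -0.47, Rps9 at -0.42, and Rps25 and Rps10 both at -0.38. Rps3, at the entry of the messenger RNA channel, was at -0.29 and Rps24 at -0.24. Rps6, the target of S6 kinase below mTORC1, read 13.46 on the CXCR3+ innate array, 13.31 on the CXCR3- innate array and 13.46 on the naive array. That is a difference of -0.15 at the brightest signal of any member. A few small subunit genes did not follow the rest. Rps27 was equal in CXCR3- innate and naive cells at 7.28 and read 7.25 in CXCR3+ innate cells. Rps18 read 8.10, 8.16 and 8.12, a difference from naive of 0.04. Rps23, which helps to read the codon, read 7.55, 7.55 and 7.47, a difference of 0.07.

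Among the large subunit proteins, Rpl14 (Entrez gene 67115) showed the widest gap between the innate populations. It read 9.22 on the CXCR3+ innate array, 8.34 on the CXCR3- innate array and 9.26 on the naive array, so that only the CXCR3- innate array was low, by 1.89-fold from naive. Rpl38, needed for translation of a set of Hox messenger RNAs in the mouse embryo, read 11.10, 10.29 and 11.04. Rpl35, at the rim of the tunnel through which the new chain leaves, read 11.37, 10.75 and 11.53. Rpl15, one more Diamond-Blackfan gene, read 11.26, 10.69 and 11.36. In these 4 genes the CXCR3+ innate and naive arrays lay within 0.16 of each other while the CXCR3- innate array lay 0.67 or more below naive.

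In Rpl7 and Rpl9 the CXCR3+ innate value lay further below naive than in the genes above. Rpl7 read 8.99 on the CXCR3+ innate array, 8.59 on the CXCR3- innate array and 9.49 on the naive array. Rpl9 read 8.87, 8.39 and 9.27. CXCR3+ innate cells differed from naive by -0.50 in Rpl7 and -0.40 in Rpl9. Rpl8, close to the site of peptide bond formation, read 10.53, 9.90 and 10.76, and Rpl6l read 9.89, 9.46 and 10.16. Of the 13 members that were lower by size in CXCR3- innate cells, 11 had a CXCR3+ innate value within 0.3 of naive, and Rpl7 and Rpl9 were the exceptions.

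Several large subunit genes lay just short of 1.5-fold in CXCR3- innate minus naive. Rpl10a, of the mobile L1 stalk, read 9.23 on the CXCR3+ innate array, 8.68 on the CXCR3- innate array and 9.26 on the naive array. Rpl23a, at the tunnel exit, read 10.54, 9.97 and 10.55, and Rpl28 read 12.11, 11.72 and 12.30. All 3 genes were at -0.58, and in Rpl10a and Rpl23a the CXCR3+ innate and naive values nearly coincided. Rplp0, the scaffold of the stalk that recruits elongation factors, read 8.48, 8.04 and 8.55 and was at -0.51, while its partner Rplp1 was at -0.19. Rpl7l1, a relative of Rpl7, read 6.80, 6.61 and 7.33. Its difference of -0.72 was not counted because both values were under the median of their array. Further members at intermediate values were Rpl13 at -0.44, Rpl29 at -0.41, and Rpl19 and Rpl7a both at -0.39. Rpl32 and Rpl34 were both at -0.33, Rpl21 at -0.32 and Rpl41 at -0.26, with values of 12.26, 12.07 and 12.33.

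The large subunit genes with the smallest differences were mostly dim. Rpl22, which the development of T cells with an alpha-beta receptor requires, was at -0.24, Rpl27 at -0.21, Rpl17 and Rpl4 both at -0.20, and Rpl26 at -0.16. Rpl22 read 7.01, 6.77 and 7.01 and Rpl26 read 7.02, 6.87 and 7.03 in the order used above. Rpl3, which shapes the peptidyl transferase centre, was at -0.02. Rpl39 had 7.36 on all 3 arrays, Rpl37a lay -0.0046 from naive on both innate arrays, and Rpl39l, a paralogue of Rpl39 known from testis, was equal in CXCR3- innate and naive cells. Rpl11, which with 5S ribosomal RNA binds and blocks Mdm2, was the only large subunit gene above 0, at 0.15 with values of 7.01, 7.04 and 6.89. All 34 members at or above the 75th percentile of mean level over all genes (8.18) were below 0 in this comparison, with a median of -0.48. The 2514 other genes at or above that percentile had a median of -0.11. Of other genes, 74.4% were below 0 at a mean level from 9 to 10 and 71.1% from 10 up. Among the 14 members below the 75th percentile, 8 were below 0, 3 were equal and 3 were above 0.

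CXCR3- innate cells also had lower values than naive cells in bright genes of other kinds. Over the 204 other genes with a mean level of at least 10, the median difference was -0.25 and 145 were below 0. Over the 17 ribosomal protein genes at that level, the median was -0.50 and all 17 were below 0. Quantile normalization sets the 3 arrays to one distribution. After it the median of the other bright genes was -0.05 in place of -0.25. For all 48 members, bright and dim, the median was -0.32 in place of -0.39, and 40 of them stayed below 0. The count of members lower by size was then 6. The 48 members and the other bright genes differ in level, so these changes are not for like sets. No value after quantile normalization is given for the 17 bright members alone. The part of array scaling in the result was not tested.

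**Figure D3:**
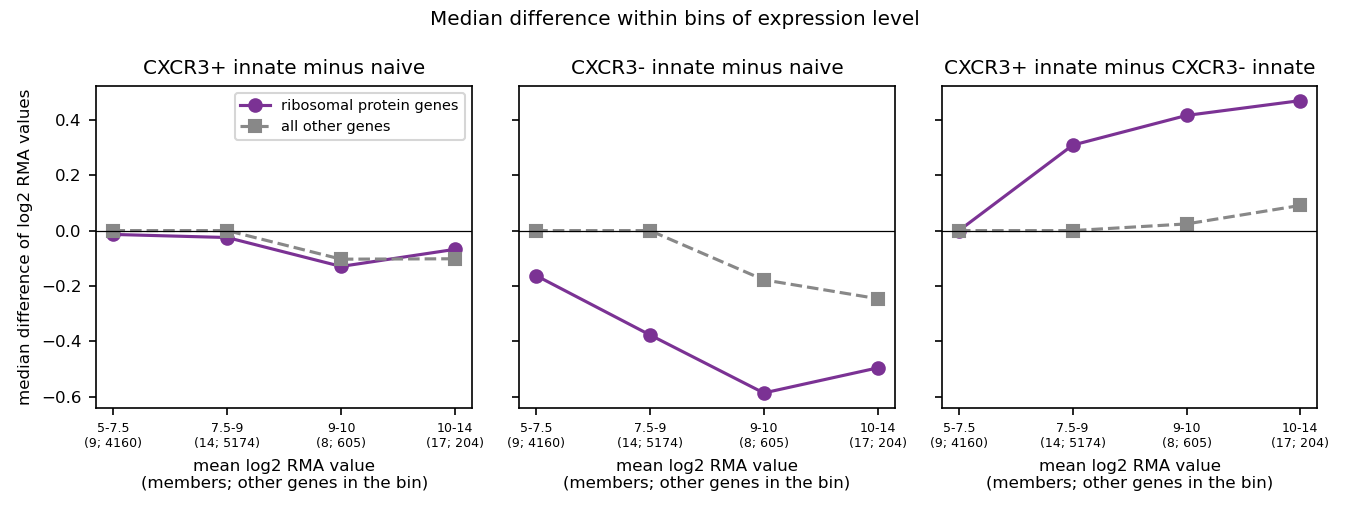
Median difference of log2 RMA values for ribosomal protein genes (circles) and all other genes (squares) in 4 bins of the mean level of the 3 arrays, 1 panel per comparison. Numbers under the axis give members and other genes in each bin, and with 8 to 17 members a bin the shape of the circles' line is not to be read as a trend. In the bin from 9 to 10 the medians of CXCR3- innate minus naive were -0.59 for the 8 members and -0.18 for the 605 other genes.

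CXCR3+ innate cells differed little from naive cells in these genes. No member reached 1.5-fold in either direction, with backgrounds of 0.5% for higher and 0.697% for lower genes, or 2-fold, with backgrounds of 0.137% and 0.0981%. The median difference was -0.05, with 34 members below 0, 11 above and 3 equal, where 34.2% of all genes were below 0, 20.7% above and 45.0% equal. The split depended on the scaling: after quantile normalization 28 members were below 0 and 20 above, and after centring each array on its median 32 and 16. Members ranged from -0.53 for Rpl7l1 to 0.37 for Rpl32. Rpl32, of the large subunit, read 10.57 on the CXCR3+ innate array, 9.87 on the CXCR3- innate array and 10.20 on the naive array, so the CXCR3+ innate array was the highest of the 3. Rpl17 read 6.79, 6.94 and 7.14, with the CXCR3+ innate value lowest, and Rpl34 was equal in both innate populations at 6.75 and read 7.08 in naive cells. Rpl29 and Rplp1 were each 0.15 above naive. The small subunit ranged only from -0.28 for Rps26 to 0.07 for Rps23.

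Most ribosomal protein genes were higher in CXCR3+ than in CXCR3- innate cells. This comparison shares an array with each of those above. CXCR3+ innate cells had the higher value in 40 of 48 members, the lower in 4 and an equal one in 4, where 28.7% of all genes were above 0, 22.3% below and 49.0% equal. The median difference was 0.34, with 0.27 for the large and 0.36 for the small subunit, and 0.00 over all genes. By size 8 members were higher, with a background of 1.0%, none was lower (background 0.0785%), and none was past 2-fold (backgrounds 0.147% higher and 0.00981% lower). They were Rpl14 at 0.87, Rpl38 at 0.81, Rps19 at 0.75, Rpl32 at 0.70, Rps7 at 0.67, Rpl8 at 0.63, Rpl35 at 0.62 and Rps12 at 0.61. Of these, 7 were also among the 13 lower in CXCR3- innate than in naive cells. Rpl17 at -0.15, Rps18 at -0.07, and Rps27 and Rpl11 both at -0.03 were the 4 members with a lower value in CXCR3+ innate cells. After quantile normalization 4 members were higher by size, and 38 were above and 10 below 0. After centring on the median 39 were above and 9 below.

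Probe sets of the same member often gave different values. Of 17 such members, 13 had probe sets whose mean values lay more than 1 apart, and in 5 (Rpl3, Rpl19, Rps9, Rps18 and Rps24) the probe sets lay on both sides of 0 in CXCR3- innate minus naive. One probe set of Rpl19 read 11.91 on the CXCR3+ innate array, 11.32 on the CXCR3- innate array and 12.27 on the naive array, a difference from naive of -0.94. The other read 7.19, 7.19 and 7.03. The probe sets of Rps9 differed from naive by -0.94 and 0.10, and the mean of -0.42 printed above matches neither. Among the 70 probe sets with distinct values, all 25 with a mean level of at least 10 were below 0, with a median of -0.47. Of the 23 between 8 and 10, 22 were below 0 and 1 was equal, with a median of -0.58. Of the 22 below 8, 10 were below 0, 5 were equal and 7 were above, with a median of 0.00. Rows with equal values were common among dim probe sets and do not show that expression was the same.

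**Figure D4:**
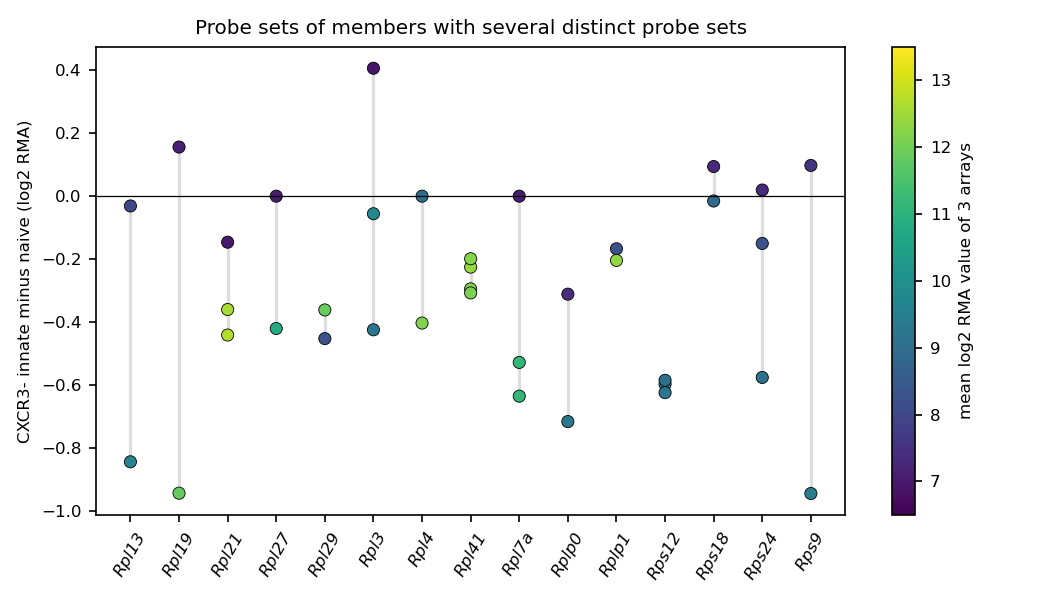
CXCR3- innate minus naive difference of each probe set with distinct values, for members that have several (1 column per gene, each point 1 probe set), coloured by its mean log2 RMA value. The dimmest point is often the highest of its column, as in Rpl19 and Rps9, whose brighter points both lie at -0.94.

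Probe sets that carry several symbols, at least 1 of them a ribosomal protein gene, were kept out of the members because they may mix genes. There were 47, and 44 of them were lower in CXCR3- innate than in naive cells, 2 were equal and 1 was higher. The shares over all genes, which are averages of probe sets and mostly dimmer, were 36.3%, 42.1% and 21.6%. Of the 47 probe sets, 20 had a mean level of at least 10. All 20 were below 0, where 71.1% of other genes at that level were. The median difference of the 47 probe sets was -0.63. In CXCR3+ innate minus naive it was -0.07, and between the innate populations 0.47. These probe sets were not used for naming, and they share the 3 arrays with the members.

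Parts of the ribosome were compared by lists. Of the 40S head, 7 of 14 listed genes were measured, with a median difference of -0.38 for CXCR3- innate minus naive, and of the body and platform 12 of 18, with -0.45. The peptide exit tunnel and its rim had -0.20 over 7 of 8 genes. That median is the value of Rpl4, whose brighter probe set was at -0.40 and whose dimmer probe set was at 0.00. Of Diamond-Blackfan anaemia genes, 12 of 19 were measured, and their median was -0.44 in CXCR3- innate and -0.05 in CXCR3+ innate minus naive. The P stalk list held 2 measured genes of 4, the 5S list 1 of 2 and the paralogue list 2 of 8, all given above. Of 8 listed ribosomal proteins whose symbols fall outside the rule, 3 were measured. All 3 were lowest on the CXCR3- innate array, where 20.7% of all genes were strictly lowest. Rps3a1 read 10.40 on the CXCR3+ innate array, 9.82 on the CXCR3- innate array and 10.68 on the naive array, Fau, which fuses a 40S protein to a ubiquitin-like domain, 12.12, 11.62 and 12.30, and Rpsa 10.30, 9.66 and 10.01.

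The rest of the pathway was described in the same way. Of other genes with TOP messenger RNAs, 18 of 19 measured were below 0 in CXCR3- innate minus naive, where 36.3% of all genes were, and the median was -0.34. By size 4 were lower, against 1.6% of all genes. Snhg1, a host transcript of small nucleolar RNAs, was at -0.90, the helicase gene Eif4a2 at -0.75 and the elongation factor gene Eef1b2 at -0.70. Translation initiation and elongation factors as a whole had a median of -0.22 over 47 genes, 4 of them lower by size against the same 1.6%. These were Eif3m at -0.69 and 3 genes that the TOP list also holds, Eif4a2, Eef1b2 and Eif3e, the last at -0.62. None of the 19 TOP genes and none of the 47 factors was 1.5-fold apart in CXCR3+ innate minus naive. Between the innate populations the medians were 0.25 and 0.17, and Eef1b2 at 0.61 was the only gene of either list that was higher by size.

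Lists of genes that build ribosomes had smaller medians, but they were also dimmer. The median level was 7.69 for biogenesis factors and 9.04 for the members, and the 14 dimmer members, with a median level of 7.13, had a median difference of only -0.08. The lists were not compared at like level. Ribosome biogenesis factors had a median difference of -0.12 over 43 of 51 listed genes for CXCR3- innate minus naive, with 32 below 0 (background 36.3%) and 1 lower by size (background 1.6%), Nop58 of the box C/D small nucleolar particle at -0.62. The nucleolar protein genes Gnl3 and Ncl were at -0.57 and -0.52. In the other comparisons the median of this list was 0.00 for CXCR3+ innate minus naive and 0.05 between the innate populations. There Nop10, a core protein of the box H/ACA particle, was 0.60 higher in CXCR3+ innate cells and was the 1 factor past 1.5-fold. RNA polymerase I, which transcribes ribosomal RNA, had a median of -0.06 over 12 of 14 genes, with its subunit gene Znrd1 at -0.55. MYC and mTORC1 pathway regulators had one of -0.04 over 25 of 37 genes, none 1.5-fold apart in any comparison. Its lowest gene was Sesn1, an inhibitor of mTORC1, at -0.49. Myc and Larp1, which were chosen after their values were seen, read 8.82 and 9.46 on the CXCR3+ innate array, 8.78 and 9.38 on the CXCR3- innate array and 8.89 and 9.47 on the naive array. Mitochondrial ribosomal protein genes, which serve a separate ribosome, had medians of 0.00, -0.03 and 0.02 in the 3 comparisons over 31 genes. Mrpl24, at -0.80 in CXCR3- innate minus naive, was the only one of them past 1.5-fold.

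**Figure D5:**
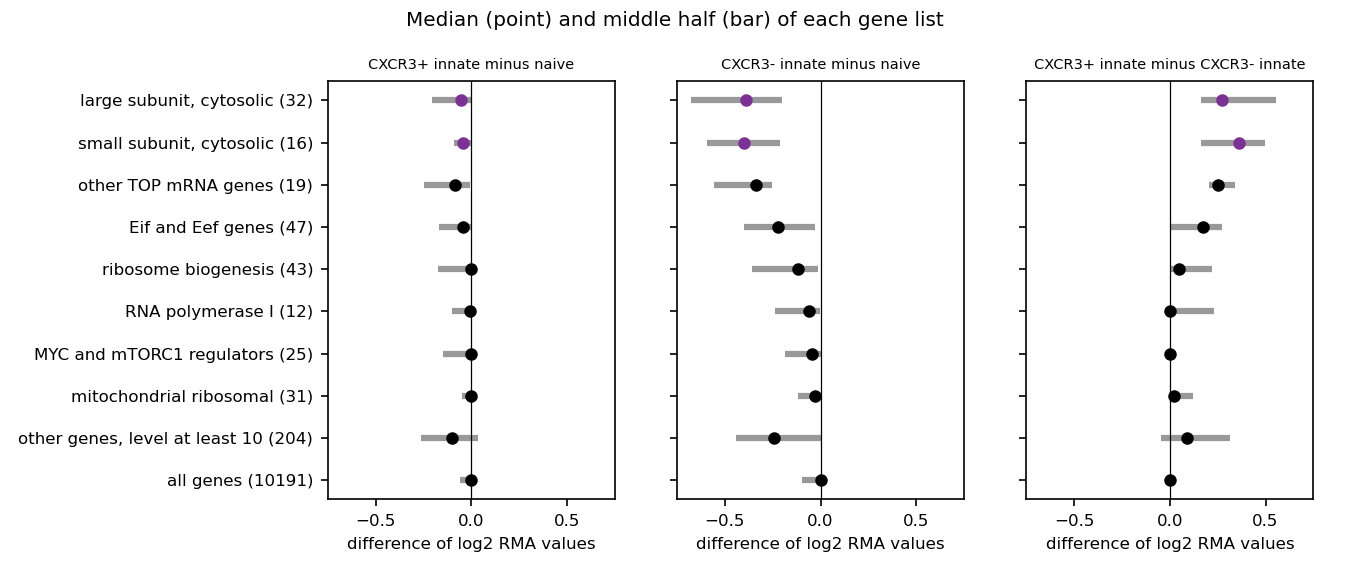
Median (point) and 25th to 75th percentile (bar) of the difference of log2 RMA values for 10 gene sets, with the number of measured genes in brackets, in the 3 comparisons. In the middle panel the large and small subunits lie at -0.39 and -0.40, other TOP messenger RNA genes at -0.34 and other bright genes at -0.25.

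Genes outside the rule with the pattern nearest to the members were found by the distance between their differences from naive and the member medians of -0.05 and -0.39, among 4341 genes at or above a mean level of 7.77. The nearest over these 3 arrays were Cuta, Zfp511, Ubl3, Vps28, Eif3k, Snora44, Slc7a5, Rbis, Eif4a1 and Erf. Cuta, the nearest, read 8.64 on the CXCR3+ innate array, 8.30 on the CXCR3- innate array and 8.69 on the naive array. With 3 values a gene, many genes can come this close.

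Some members have small nucleolar RNA genes within their span, by the positions in the RefSeq table. The 12 members with such a gene had a median CXCR3- innate minus naive difference of -0.32 and the 35 without one -0.41. The small nucleolar RNAs inside members that were measured numbered 8. All 8 were below naive in CXCR3- innate cells, where 36.3% of all genes were, with Snord83b at only -0.02. Snora69, inside Rpl39, was at -1.41 where its host was listed as equal, and Snora7a, inside Rpl32, was at -0.81 where its host was at -0.33. Snord16a, inside Rpl4, was at -1.17, and at -0.80 in CXCR3+ innate minus naive. Snora33, inside Rps12, was at -0.84, and at 0.46 in CXCR3+ innate minus naive.

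Defining markers of CD8+ T cells were present, while Cxcr3 itself differed little between the innate arrays. Cxcr3 read 7.97 on the CXCR3+ innate array, 7.82 on the CXCR3- innate array and 7.57 on the naive array, so the innate populations were 0.15 apart and the CXCR3- innate value was 0.25 above naive. Cd44, high on memory-phenotype cells, read 8.30, 7.88 and 7.24 and was likewise lowest on the naive array. Cd8a read 10.14, 9.77 and 10.43 in the same order of arrays, and Cd8b1 11.31, 11.29 and 11.54. In CXCR3- innate minus naive, Cd8a was at -0.66, past 1.5-fold, and Cd8b1 at -0.26. Values were present for 8 of 11 listed T cell genes, with a median difference in that comparison of -0.30, Cd3g at -0.93 among them. None of 12 B cell and 6 erythroid genes had a value. Of myeloid genes 7 of 14 were measured, with summed linear signals of 1300, 1361 and 1294 in CXCR3+ innate, CXCR3- innate and naive cells. Of CD4 T cell genes 2 of 5 were measured (308, 380 and 340) and of proliferation genes 7 of 14 (1894, 1836 and 1998). Of natural killer cell genes 2 of 7 were measured (387, 392 and 280). They were Ncr1, at 7.19, 7.43 and 7.19, and Eomes, at 7.92, 7.77 and 7.06, in the same order of arrays. On both innate arrays the difference from naive was larger in Eomes than in Ncr1. The part of these lists in the result was not tested.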

How the data were processed

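Sorted CD8+ T cells of 3 populations were measured with 1 Affymetrix array each, from biotin-labelled total RNA. The authors deposited log2 values, and the submitters' processing notes name RMA and Affymetrix Expression Console, whose version and genome build are not given in the sources used here. The highest value of every probe set was at least 7.0, so dimmer probe sets were not analysed here. The platform annotation gave 10576 probe sets 1 symbol, and probe sets of a gene were averaged to 10191 genes. Differences of log2 values were counted at 2-fold and 1.5-fold with the higher value at or above the array median, beside the same counts over all genes. The number of arrays limits the precision, and no p-value was computed. Every member could be named, with full values for those past 1.5-fold, most different or against the main direction, and up to 4 genes of each other list. The members and lists were chosen with earlier results of these data known. The alternatives were quantile normalization, cyclic loess, median centring, an offset of 16, other choices of probe sets and members, other filters on dim genes and a lower threshold, a ratio of 5 to 4. Counting identical probe sets once was added after the data were seen. Calculations used Python 3.11.15, pandas 2.3.3, numpy 2.4.6, R 4.3.3 and limma 3.58.1, and were tested on simulated data.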

Additional observations from a re-analysis of the deposited data

How the results depend on the processing

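The median over the members kept its sign in all 3 comparisons under every alternative that recomputed it. In CXCR3- innate minus naive it ranged from -0.48 (probe set with the highest mean) to -0.32 (quantile normalization), and between the innate populations from 0.26 to 0.40. In CXCR3+ innate minus naive, where it was -0.05, it was -0.0191 after quantile normalization, -0.0257 after cyclic loess and -0.0161 over every probe set. Counts over probe sets or over added genes have another denominator than the 48 members. The count of members lower by size in CXCR3- innate minus naive was 13, and 6 after quantile normalization and 27 at a ratio of 5 to 4. Over every probe set it was 20 of 77 probe sets. The 2-fold count, 1, was 0 after quantile normalization or cyclic loess and 2 among the 77 probe sets or among 65 genes with several-symbol probe sets added. The 2 of the 77 were the probe sets of Rps19, which hold identical values. The count higher between the innate populations was 8, and 4 after quantile normalization and 25 at a ratio of 5 to 4. It was 19 of the 77 probe sets and 15 of the 65 genes. With identical probe sets of a gene counted once, and no filter on dim probe sets, it was 13 of 70 probe sets. In CXCR3+ innate minus naive 1 member was higher and 2 were lower at a ratio of 5 to 4, and 1 of the 65 genes was lower with several-symbol probe sets. The causes were not tested. No paired analysis was possible because each population has 1 array.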
